A study of Homo sapiens with 6 samples.

Results

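The ADAM, ADAMTS and ADAMTSL genes were taken as every row of the count table whose symbol is one of these stems followed by a number, which gave 46 of 56478 genes: 22 ADAM, 19 ADAMTS and 5 ADAMTSL. Of these, 28 had 10 or more counts in at least 3 libraries and were tested, and 18 were too low. The libraries are from BT20, a cell line established from a human breast carcinoma that lacks hormone receptors and HER2, kept in serum-containing medium and carrying either a hairpin against cytokeratin 5 (pLK0-shCK5-425222, shCK5-22, n = 3) or a control hairpin (pLK0-shControl, shControl, n = 3). Both groups hold a knockdown vector, the labels name no other agent, and each arm rests on 1 hairpin, so an effect of knockdown and one of this hairpin alone cannot be told apart. The comparison of shCK5-22 with shControl shows how the levels of these genes differ with KRT5 knockdown.

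ADAMs are membrane-anchored metalloproteinases that cut other membrane proteins close to the cell surface, a step called shedding, which frees growth factors, cytokines and receptor parts and prepares Notch for its final cleavage within the membrane. Several ADAMs lack the catalytic residues and act in adhesion instead. ADAMTS proteins are secreted proteinases with thrombospondin repeats that act on proteoglycans, collagen precursors and other matrix proteins, and ADAMTSL proteins share those repeats but have no proteinase domain. In epithelial cancers ADAMs are studied for the release of EGF receptor ligands and ADAMTS enzymes for matrix turnover.

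Library totals lay between 47703937 and 65541734 counts. KRT5, the targeted gene, stood at 21.1, 22.7 and 24.1 CPM (counts scaled to a common library size with TMM factors) in shCK5-22 and at 230.7, 246.6 and 244.2 CPM in shControl, a log2 fold change of -3.41 (SE 0.0447, adjusted p = 5.34e-21). The 6 epithelial markers summed to between 6256 and 6675 CPM in shCK5-22 and between 6366 and 6644 CPM in shControl. KRT8 alone averaged 3957 CPM in shCK5-22 and 3815 CPM in shControl, so these sums say little of the other markers. CDH1, KRT17 and KRT14 were lower in shCK5-22 (log2 fold changes -0.37, -0.62 and -1.15), where 16.6% of all genes tested were lower. EPCAM, KRT8 and KRT18 were not called. In chi-square comparisons of libraries within a group, shCK5-22 replicate 1 stood apart, at 19.8 and 33.7 per degree of freedom against 5.08 for the other shCK5-22 pair and 3.47 to 4.88 for shControl pairs. Values without it are given where leaving it out ends a call or clearly moves a value.

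The coding stretch for the zinc-binding motif of these proteinases is shown first, because it separates members that carry the catalytic motif from those that do not. It spans 11 codons, with histidine codons at 1, 5 and 11, a glutamate codon at 2 and a glycine or asparagine codon at 8. An in-frame match was found in 7 of 11 tested ADAM genes, 13 of 13 ADAMTS genes and 0 of 4 ADAMTSL genes. ADAM11, ADAM22, ADAM23 and ADAM32 had none. At codon 8, ADAMTS1, ADAMTS9 and ADAMTS15 encode asparagine and the other 10 ADAMTS and all 7 ADAM genes with the motif encode glycine. The lines give 9 members that passed the threshold in the comparison, from GENCODE 29 transcripts on GRCh38, 5′ to 3′ on the coding strand, with the histidine and glutamate codons in capitals.
ADAMTS9: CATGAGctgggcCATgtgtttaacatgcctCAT
ADAMTS15: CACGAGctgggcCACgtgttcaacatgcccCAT
ADAMTS1: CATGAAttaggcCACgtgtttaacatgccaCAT
ADAMTS12: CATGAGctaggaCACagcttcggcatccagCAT
ADAMTS16: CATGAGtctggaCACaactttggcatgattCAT
ADAM8: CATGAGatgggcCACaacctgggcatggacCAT
ADAM12: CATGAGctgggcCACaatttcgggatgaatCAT
ADAM15: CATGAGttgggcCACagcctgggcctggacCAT
ADAM19: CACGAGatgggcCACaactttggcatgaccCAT
The printed ADAM stretches each lie in 1 exon. They are at chr10:133271880-133271912 on the minus strand for ADAM8, chr10:126094059-126094091 on the minus strand for ADAM12, chr1:155056995-155057027 on the plus strand for ADAM15 and chr5:157505734-157505766 on the minus strand for ADAM19. The stretch of ADAM10, which is not printed, crosses an exon junction. The printed ADAMTS stretches cross one as well. Their outer bases are chr3:64651148-64654369 on the minus strand for ADAMTS9, chr11:130461612-130462109 on the plus strand for ADAMTS15, chr21:26841143-26841867 on the minus strand for ADAMTS1, chr5:33649682-33658200 on the minus strand for ADAMTS12 and chr5:5191774-5200147 on the plus strand for ADAMTS16. The first 3 lines are the asparagine type and the others the glycine type.

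Of the 28 tested members, 10 were higher in shCK5-22 and 6 were lower at an adjusted p below 0.05 (edgeR quasi-likelihood test, Benjamini-Hochberg over all 18116 genes tested). Over all genes tested, 17.3% were higher and 16.6% lower, so that 57.1% of the tested members and 33.9% of all tested genes were called in either direction. The direction differed by subfamily: 4 ADAM genes were higher and 5 lower, 5 ADAMTS genes were higher and 1 lower, and 1 ADAMTSL gene was higher while the other 3 tested did not pass. The differences between subfamilies were not tested, and in bulk libraries fewer cells expressing a gene and less RNA per cell cannot be told apart. The median log2 fold change was 0.18 for the 28 members, -0.06 for ADAM, 0.18 for ADAMTS and 0.22 for ADAMTSL genes, against -0.005 for all genes tested. Rises of at least 2-fold passed the test for 3 members (ADAMTSL1, ADAMTS17 and ADAMTS15), where 1.61% of all genes tested did so. Falls of at least 2-fold passed for 1.93% of all genes tested and for no member, and the called member with the lowest log2 fold change was ADAMTS1 at -0.76. The groups did not overlap for 19 members, 12 with shCK5-22 above and 7 below, or 67.9%, where this was so for 44.9% of all genes tested.

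**Figure D1:**
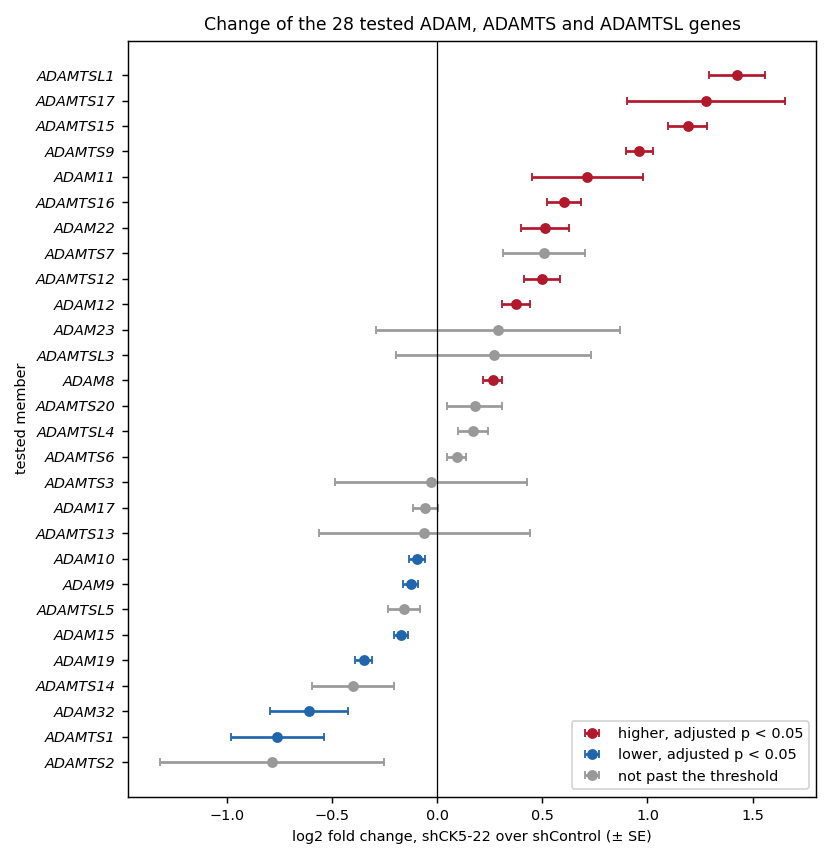
Log2 fold change of shCK5-22 over shControl with its SE for the 28 tested members, 1 row each, ordered by change and coloured by the test. ADAMTSL1, ADAMTS17, ADAMTS15 and ADAMTS9 lie at the top, between 0.96 and 1.42, and the well expressed ADAM9, ADAM10, ADAM15 and ADAM19 lie between -0.35 and -0.10.

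Levels between genes were compared as CPM per kilobase of exon. On that scale ADAM9 was highest, at 68.7 in shCK5-22 and 75.0 in shControl, followed by ADAM15 at 18.8 in shCK5-22 and 21.2 in shControl. The highest ADAMTS gene was ADAMTS6, at 7.65 in shCK5-22 and 7.17 in shControl, and next came ADAMTS12, at 6.37 in shCK5-22 and 4.52 in shControl. The highest ADAMTSL gene was ADAMTSL5, at 2.74 in shCK5-22 and 3.05 in shControl, and the lowest tested member was ADAM23 by the shControl level, at 0.0262 in shCK5-22 and 0.0217 in shControl. The order is approximate, since reads appear to have been counted over whole gene spans, introns included, and left out where spans of 2 genes overlap. Other spans cover 40.3% of the exon bases of ADAMTSL1, 23.7% of ADAM17, 11.4% of ADAMTSL4 and 11.2% of ADAMTS9, so their levels may be too low by an unknown amount.

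**Figure D2:**
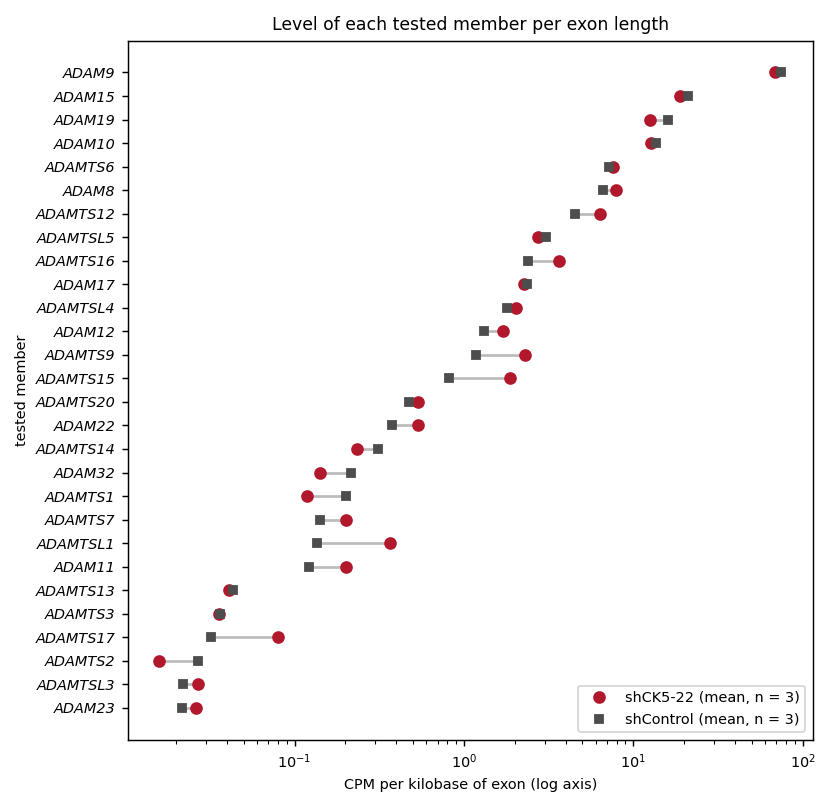
Mean CPM per kilobase of exon (log axis) of the 28 tested members in shCK5-22 (circles) and shControl (squares), n = 3 each, ordered by the shControl level. ADAM9 stands highest, at 68.7 in shCK5-22 and 75.0 in shControl, and the gap between groups is wide for ADAMTS15, at 1.86 in shCK5-22 and 0.816 in shControl.

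Among ADAM sheddases, the most abundant were slightly lower with KRT5 knockdown. ADAM19, which sheds neuregulins (chromosome 5, 157395534 to 157575775), had 103.4, 91.4 and 94.9 CPM in shCK5-22 and 118.4, 124.2 and 126.4 CPM in shControl. It was the largest fall among the abundant ADAMs, with every shCK5-22 library below every shControl library. Its log2 fold change was -0.35 (SE 0.0415, adjusted p = 1.64e-06), and -0.40 without shCK5-22 replicate 1.

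ADAM15, which carries an integrin-binding loop in its disintegrin domain (chromosome 1, 155050566 to 155062775), had 119.3, 125.8 and 126.4 CPM in shCK5-22 and 135.5, 143.7 and 139.4 CPM in shControl. The groups were apart, by a small amount. The log2 fold change was -0.17 (SE 0.0341, adjusted p = 0.000407). ADAM9, a widely expressed sheddase (chromosome 8, 38996869 to 39105144), had 509.1, 454.7 and 461.7 CPM in shCK5-22 and 514.3, 518.4 and 523.1 CPM in shControl. Replicate 1 of shCK5-22 stood close to the shControl libraries and the other 2 were lower. The log2 fold change was -0.13 (SE 0.0356, adjusted p = 0.00956). Without shCK5-22 replicate 1 it was -0.18, and without shCK5-22 replicate 3 the call was lost (adjusted p = 0.0713) and over all alternatives adjusted p of ADAM9 lay between 9.72e-06 and 0.0713.

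ADAM10, which sheds E-cadherin and cuts Notch receptors after ligand binding (chromosome 15, 58588807 to 58749978), had 219.0, 193.8 and 203.0 CPM in shCK5-22 and 221.7, 221.0 and 216.0 CPM in shControl. The groups overlapped, since shCK5-22 replicate 1 lay among the shControl values. The call was at the threshold (log2 fold change -0.10, SE 0.0368, adjusted p = 0.0488) and was lost under 10 of 17 alternatives, with adjusted p between 0.000381 and 0.244 over them. Leaving out shCK5-22 replicate 1 gave a log2 fold change of -0.15 (adjusted p = 0.000381), and leaving out any other single library ended the call (0.0782 to 0.244). ADAM17, the TNF-converting enzyme (chromosome 2, 9488486 to 9556732), had 23.4, 24.2 and 25.6 CPM in shCK5-22 and 26.4, 24.1 and 25.7 CPM in shControl. These groups overlapped and the gene did not pass the test (log2 fold change -0.06, SE 0.0575, adjusted p = 0.507).

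The remaining catalytic ADAMs were higher. ADAM8, a sheddase known from leukocytes and from aggressive breast cancers (chromosome 10, 133262403 to 133276868), had 38.1, 37.1 and 38.6 CPM in shCK5-22 and 31.4, 31.6 and 31.9 CPM in shControl. Replicates were close and the groups clearly apart. The log2 fold change was 0.26 (SE 0.0467, adjusted p = 0.00013). ADAM12, which sheds the EGF receptor ligand HB-EGF (chromosome 10, 126012381 to 126388455), had 16.9, 17.0 and 16.4 CPM in shCK5-22 and 13.2, 12.2 and 13.4 CPM in shControl. All shCK5-22 libraries were above all shControl libraries. Its log2 fold change was 0.38 (SE 0.0674, adjusted p = 0.000144).

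The ADAMs without the zinc-binding motif were expressed at low levels and went both ways. ADAM22, a receptor of the secreted LGI proteins best known at synapses (chromosome 7, 87934143 to 88202889), had 7.16, 6.06 and 6.30 CPM in shCK5-22 and 5.08, 4.54 and 4.12 CPM in shControl. The groups were apart, with a log2 fold change of 0.51 (SE 0.113, adjusted p = 0.00113), or 0.44 without shCK5-22 replicate 1. ADAM11, its neuronal relative (chromosome 17, 44759031 to 44781846), had 0.92, 1.04 and 0.91 CPM in shCK5-22 and 0.67, 0.64 and 0.44 CPM in shControl, on 28 to 62 counts. It was higher by 0.71 on the log2 scale (SE 0.264, adjusted p = 0.0408), a call lost under 8 of the 16 alternatives in which it was tested, among them DESeq2 (adjusted p = 0.0691) and leaving out any single library but shControl replicate 1 (0.0553 to 0.172), with adjusted p from 0.0332 to 0.172 over all of them.

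ADAM32, a gene best known from testis that neighbours ADAM9 (chromosome 8, 39106990 to 39284911), had 1.18, 1.64 and 1.44 CPM in shCK5-22 and 2.33, 2.36 and 1.81 CPM in shControl. It was lower by a log2 fold change of -0.61 (SE 0.186, adjusted p = 0.0139), with groups apart. The call was lost without shCK5-22 replicate 1 (0.0584), shControl replicate 1 (0.0541) or shControl replicate 2 (0.0695), and adjusted p lay between 0.00812 and 0.0695 over the alternatives. ADAM23, another LGI receptor, had 4 to 14 counts per library and did not pass the test (log2 fold change 0.29, SE 0.58).

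Among the 13 ADAMTS genes tested, 5 were higher and 1 was lower. ADAMTS15, a proteinase that cleaves versican and aggrecan (chromosome 11, 130448974 to 130476641), had 11.2, 10.4 and 10.0 CPM in shCK5-22 and 4.75, 4.74 and 4.41 CPM in shControl. Every shCK5-22 library was over 2 times the level of any shControl library. The log2 fold change was 1.19 (SE 0.0926, adjusted p = 1.43e-09), 2.28-fold. ADAMTS9, which also cleaves versican (chromosome 3, 64515654 to 64688000), had 25.1, 23.5 and 25.3 CPM in shCK5-22 and 13.4, 11.8 and 12.9 CPM in shControl. The groups were far apart, with a 1.95-fold rise (log2 fold change 0.96, SE 0.066, adjusted p = 1.89e-10). The third member with asparagine at codon 8, ADAMTS1, an aggrecan- and versican-cleaving enzyme (chromosome 21, 26835747 to 26845409), went the other way, at 0.92, 0.87 and 0.72 CPM in shCK5-22 and 1.498, 1.20 and 1.58 CPM in shControl. It was lower with groups apart (log2 fold change -0.76, SE 0.22, adjusted p = 0.00992), on 38 to 100 counts, and the call was lost without shControl replicate 3 (0.0568). Over all alternatives adjusted p of ADAMTS1 lay between 0.00641 and 0.0568.

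ADAMTS12, which degrades cartilage oligomeric matrix protein (chromosome 5, 33523535 to 33892192), had 68.7, 56.2 and 62.0 CPM in shCK5-22 and 48.9, 41.2 and 42.5 CPM in shControl. Replicate 1 was the highest of its group in both groups, and the groups did not overlap. The log2 fold change was 0.50 (SE 0.0868, adjusted p = 0.00252), and 0.42 without shCK5-22 replicate 1. ADAMTS7, its closest relative with the same substrate, had 1.59, 1.47 and 1.61 CPM in shCK5-22 and 1.00, 1.04 and 1.24 CPM in shControl. The groups were apart, but the gene just missed the threshold (log2 fold change 0.51, SE 0.196, adjusted p = 0.0515) and passed under 3 of 17 alternatives, with adjusted p from 0.0413 to 0.133 over them. It is uncertain in any case, since 14.8% of its 50-base windows also occur in transcripts of other genes, chiefly pseudogene copies.

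ADAMTS16 (chromosome 5, 5140330 to 5320304) had 21.5, 21.9 and 21.1 CPM in shCK5-22 and 11.9, 15.7 and 14.7 CPM in shControl. The shCK5-22 libraries were close together and above the more scattered shControl libraries. Its log2 fold change was 0.60 (SE 0.0793, adjusted p = 5.97e-06). ADAMTS17, mutated in a form of Weill-Marchesani syndrome with short stature and lens dislocation (chromosome 15, 99971589 to 100342005), had 0.81, 0.47 and 0.68 CPM in shCK5-22 and 0.17, 0.25 and 0.38 CPM in shControl. It rose 2.43-fold with a wide error (log2 fold change 1.28, SE 0.376, adjusted p = 0.011), on 8 to 24 counts per shControl library. The call was lost without shCK5-22 replicate 1 (0.0509) or shControl replicate 1 (0.0539), and adjusted p lay between 0.00432 and 0.0539 over the alternatives.

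The other ADAMTS genes tested did not pass. ADAMTS6, the most abundant of the subfamily, averaged 65.5 ± 3.25 CPM in shCK5-22 and 61.4 ± 3.33 CPM in shControl (SD, n = 3 each), with a log2 fold change of 0.09 (SE 0.0457). The procollagen N-proteinases, which trim fibrillar collagen precursors, had log2 fold changes of -0.79 for ADAMTS2 (SE 0.534), -0.03 for ADAMTS3 (SE 0.458) and -0.40 for ADAMTS14 (SE 0.194). ADAMTS2 and ADAMTS3 had 4 to 23 counts per library, and their errors are correspondingly wide. ADAMTS20, a versican-cleaving enzyme, had a log2 fold change of 0.18 (SE 0.131), and ADAMTS13, which cuts von Willebrand factor, one of -0.06 (SE 0.501) on 8 to 22 counts.

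ADAMTSL1, also called punctin-1, a secreted matrix protein (chromosome 9, 17906563 to 18910950), was the member with the largest change. It had 4.81, 5.34 and 4.88 CPM in shCK5-22 and 1.75, 1.96 and 1.87 CPM in shControl. Every shCK5-22 library was over 2 times the level of any shControl library. It rose 2.68-fold (log2 fold change 1.42, SE 0.132, adjusted p = 2.36e-08). ADAMTSL4, which binds fibrillin microfibrils and is mutated in lens dislocation, averaged 13.1 ± 0.494 CPM in shCK5-22 and 11.6 ± 0.445 CPM in shControl, with groups apart and no call (adjusted p = 0.0733). ADAMTSL5 averaged 9.92 ± 0.274 CPM in shCK5-22 and 11.1 ± 0.177 CPM in shControl, likewise apart and without a call (adjusted p = 0.12), and ADAMTSL3 had 10 to 18 counts per library and a log2 fold change of 0.27 (SE 0.464).

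**Figure D3:**
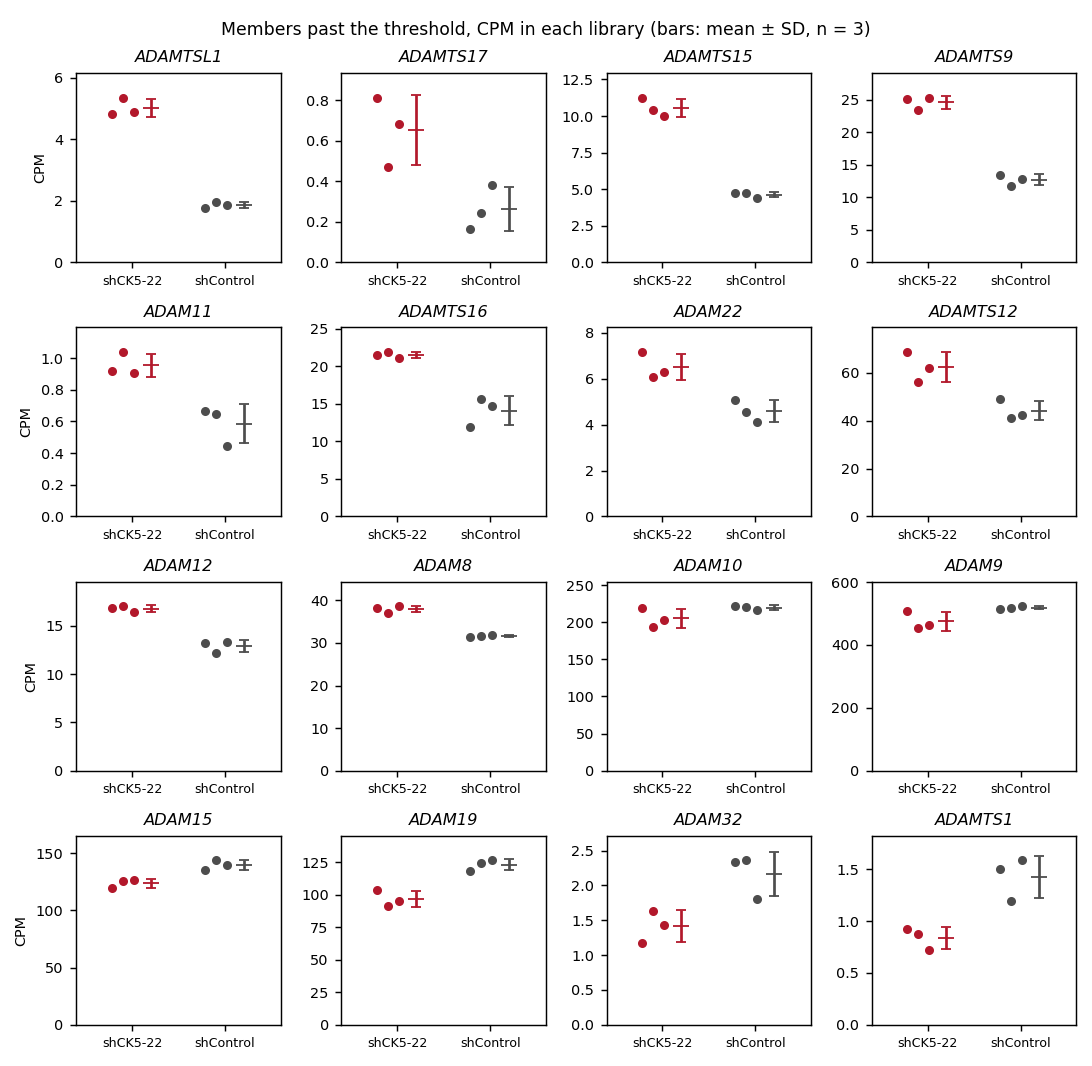
CPM in each library for the 16 members past the threshold, shCK5-22 left and shControl right, with the mean and SD (n = 3) beside the points and axes from 0. Groups are apart in 15 panels, and in ADAM10 shCK5-22 replicate 1 (219.0 CPM) overlaps shControl.

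Members under the count filter could not be compared. ADAM6, ADAM7, ADAM20, ADAM21 and ADAMTS19 were listed at 0 in every library, and 13 others had at most 14 counts in a library. These were ADAM2, ADAM5, ADAM18, ADAM28, ADAM29, ADAM30, ADAM33, ADAMTS4, ADAMTS5, ADAMTS8, ADAMTS10, ADAMTS18 and ADAMTSL2. The aggrecanases ADAMTS4 and ADAMTS5 thus had at most 4 and 2 counts per library. For ADAM21, 96.0% of exon bases lie in the span of another gene, so its 0 says nothing of its expression.

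Regulators of ADAMs, as a list, went both ways: of 15 tested, 3 were higher and 6 lower (median log2 fold change -0.07), or 20% and 40%, where 17.3% and 16.6% of all genes tested were. TIMP2, a tissue inhibitor of metalloproteinases, was higher at 243.3 ± 8.72 CPM in shCK5-22 and 181.4 ± 2.58 CPM in shControl (log2 fold change 0.42, adjusted p = 6.22e-10), and RECK, a membrane-anchored inhibitor, was higher by 0.38 (adjusted p = 0.0199). The tetraspanins that escort ADAM10 differed among themselves. TSPAN33 was lower, at 2.99 ± 0.301 CPM in shCK5-22 and 4.13 ± 0.254 CPM in shControl (log2 fold change -0.47, adjusted p = 0.0073), as was TSPAN15 (-0.14, adjusted p = 0.0287). TSPAN5 was higher, at 41.3 ± 0.687 CPM in shCK5-22 and 36.7 ± 0.526 CPM in shControl (0.17, adjusted p = 0.0051), and TSPAN10, TSPAN14 and TSPAN17 did not pass. Of the proprotein convertases, PCSK6 and PCSK7 were lower (-0.26 and -0.18, adjusted p = 0.00105 and 0.00426). PCSK5 did not pass, nor did FURIN, the most abundant of them (379.9 ± 24 CPM in shCK5-22, 395.5 ± 16.7 CPM in shControl, adjusted p = 0.349). The iRhom genes RHBDF1 and RHBDF2, needed to mature ADAM17, were lower by small amounts (-0.16 and -0.20, adjusted p = 0.0241 and 0.0321). The number of lower genes in this list was 3 without shCK5-22 replicate 2, shCK5-22 replicate 3, shControl replicate 1 or shControl replicate 3, 5 without shControl replicate 2 and 8 without shCK5-22 replicate 1. TIMP1, TIMP3 and TIMP4 were listed at 0, and all of their exon bases lie in spans of other genes, so nothing can be said of them.

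Of 40 tested membrane proteins known to be shed by ADAMs, 13 were higher and 17 lower (median log2 fold change -0.08), or 75.0% called where 33.9% of all genes were. TNF, among the 13, passed the count filter only through shCK5-22, with 14 to 28 counts there and 4 in each shControl library. CSF1, a macrophage growth factor, had 12.2 ± 0.964 CPM in shCK5-22 and 4.12 ± 0.18 CPM in shControl (log2 fold change 1.56, adjusted p = 2.25e-11). IL6R, the interleukin 6 receptor shed by ADAM17, had 42.2 ± 2.71 CPM in shCK5-22 and 16.5 ± 0.568 CPM in shControl (log2 fold change 1.35, adjusted p = 7.99e-14). Genes of EGF receptor ligands went both ways. EPGN, which encodes epigen, fell by 1.55 (adjusted p = 7.38e-14) and EGF by 1.03 (adjusted p = 0.000123) on the log2 scale. AREG and TGFA were lower as well (-0.38 and -0.24, adjusted p = 8.82e-09 and 1.69e-05). EREG was lower close to the threshold (-0.69, SE 0.178, adjusted p = 0.0476). HBEGF rose by 0.57 (adjusted p = 4.45e-10), and the ERBB3 and ERBB4 ligand gene NRG1 rose by 0.51 (adjusted p = 2.94e-05). In the Notch pathway, NOTCH3 and the ligand gene JAG1 were lower (-0.82 and -0.64). NOTCH2 was lower and NOTCH1 higher by small amounts (-0.13 and 0.15, adjusted p = 0.000885 and 0.00632), and NOTCH4 did not pass. CDH1, the E-cadherin gene, had 428.7 ± 5.36 CPM in shCK5-22 and 553.3 ± 14 CPM in shControl (log2 fold change -0.37, adjusted p = 1.2e-09). Of the gamma-secretase subunits, which cut what ADAMs leave in the membrane, 1 of 5 tested was higher (PSEN2, log2 fold change 0.33) and 1 lower (APH1A, -0.15). These shares of 20% each lie near those of all genes. The subunit gene PSENEN had 0 to 4 counts per library and was not tested.

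Of 19 tested matrix substrates and partners of ADAMTS and ADAMTSL proteins, 5 were higher and 4 lower (median log2 fold change -0.005). These shares of 26.3% and 21.1% lie near the 17.3% and 16.6% of all genes tested. The groups did not overlap for 47.4% of the list and 44.9% of all genes. LUM, among the 5 higher, passed the count filter mainly through shCK5-22, with 16 to 26 counts there and 4 to 10 in shControl. FBN1, which encodes fibrillin-1, a microfibril protein bound by several ADAMTSL proteins, had 13.9 ± 1.74 CPM in shCK5-22 and 7.06 ± 0.543 CPM in shControl (log2 fold change 0.98, adjusted p = 6.08e-08). RELN, which encodes reelin, was higher by 1.14 (adjusted p = 0.000131), and the latent TGF-beta binding protein genes LTBP1 and LTBP2 were lower (-0.60 and -0.51). VCAN and ACAN, the substrates from which ADAMTS1, ADAMTS9 and ADAMTS15 are best known, had at most 6 and 2 counts per library. All 4 genes tested that glycosylate thrombospondin repeats were higher (median log2 fold change 0.35), where 17.3% of all genes tested were. They include POFUT2, which adds fucose to the repeats of ADAMTS proteins (log2 fold change 0.36, adjusted p = 0.000261), B3GLCT, which extends that fucose (0.35, adjusted p = 1.02e-05), and the C-mannosyltransferase genes DPY19L1 (0.21, adjusted p = 0.00529) and DPY19L3 (0.42, adjusted p = 9.74e-05).

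Of 6 tested partners of disintegrin domains, 3 were higher and 1 lower, where 17.3% and 16.6% of all genes tested were. ITGAV, an integrin chain, rose by 0.31 and ITGA6 by 0.22, and ITGB5 fell by 0.18 on the log2 scale. LGI2, of the family that binds ADAM22 and ADAM23, was higher as well, with 28 to 32 counts in shCK5-22 and 2 to 14 in shControl (log2 fold change 1.75, adjusted p = 0.00787). ITGA5 and ITGB3 were listed at 0, and 42.0% of the exon bases of ITGB3 lie in spans of other genes.

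**Figure D4:**
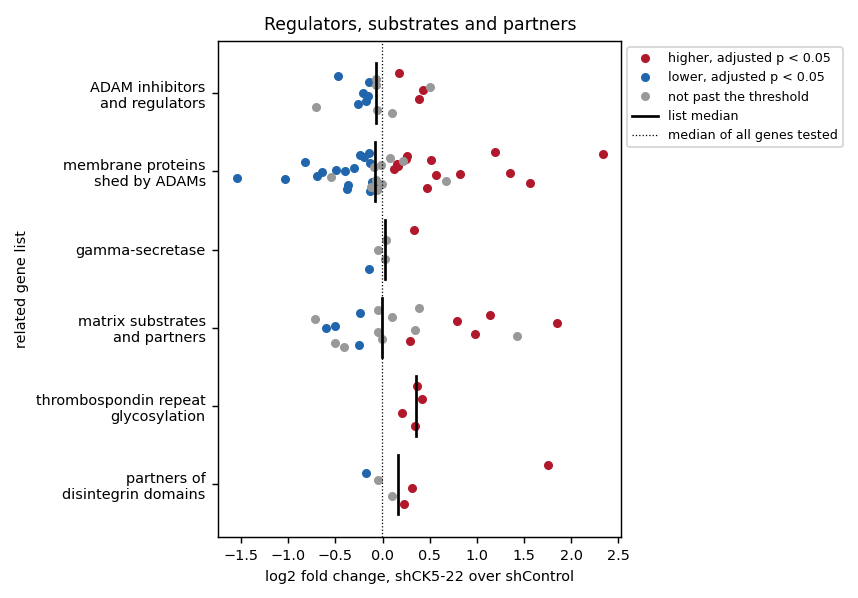
Log2 fold change of each tested gene in 6 lists of regulators, substrates and partners, with list medians as bars and the median of all genes as a dotted line. The membrane proteins spread widely around 0, from -1.55 to 2.34. The highest of them, TNF, passed the count filter only through shCK5-22. The 4 genes for thrombospondin repeat glycosylation all lie above 0, between 0.21 and 0.42.

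Several members are also expressed by stromal cells and leukocytes, so marker lists of those cells were read alongside. The 10 fibroblast markers summed to 29.4 to 30.6 CPM in shCK5-22 and 33.2 to 34.8 CPM in shControl. PDGFRA and THY1 were listed at 0 in every library. All exon bases of THY1 lie in spans of other genes, so its 0 says nothing of its expression. Of 6 tested, PDGFRB and LUM were higher and COL1A1 and FAP lower. PDGFRB had 46 to 80 counts in shCK5-22 and 0 to 6 in shControl, so it passed the count filter only through the shCK5-22 libraries. LUM had 16 to 26 counts in shCK5-22 and 4, 4 and 10 in shControl, so it passed mainly through shCK5-22. The 8 endothelial markers summed to 20.2 to 32.7 CPM in shCK5-22 and 24.6 to 32.2 CPM in shControl. Most of that was CDH5, which averaged 22.2 CPM in shCK5-22 and 21.2 CPM in shControl. PECAM1 was lower and the other 7 were not called. The 9 leukocyte markers summed to 6.87 to 8.84 CPM in shCK5-22 and 6.49 to 6.91 CPM in shControl. CSF1R was the largest part, averaging 4.32 CPM in shCK5-22 and 4.65 CPM in shControl. ITGAM was higher among 4 tested, and MS4A1 and CD68 were listed at 0. The part of these markers in the changes of the metalloproteinase genes was not tested.

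Promoter windows from 250 bases before to 50 after the start were held by RefSeq (GRCh38.p14) for 21 of the 28 tested members. ADAM9, ADAM11, ADAM32, ADAMTS1, ADAMTS9, ADAMTS15 and ADAMTS16 had no window and were not searched, and all of them passed the threshold. Both strands were searched. The loose AP-1 pattern TGANTCA, with any base at N, matched in 1 of 21, against 7.71% of 35116 windows of this length. The TEAD site GGAATG was found in 5 of 21 against 14.0%, and the E-box CACCTG in 5 of 21 against 20.6%. The TATA box TATAAA was found in 0 of 21 against 11.5%, and the GC box GGGCGG in 18 of 21 against 45.0%. The window with the TGANTCA match belongs to ADAMTS12, which rose. It is shown because no other of the 21 windows holds such a match (chr5:33891941-33892240, minus strand). The match reads TGAATCA, with A at the open base. Capitals mark, in order, a GC box, a TEAD site and the TGAATCA match, which do not overlap.
ADAMTS12: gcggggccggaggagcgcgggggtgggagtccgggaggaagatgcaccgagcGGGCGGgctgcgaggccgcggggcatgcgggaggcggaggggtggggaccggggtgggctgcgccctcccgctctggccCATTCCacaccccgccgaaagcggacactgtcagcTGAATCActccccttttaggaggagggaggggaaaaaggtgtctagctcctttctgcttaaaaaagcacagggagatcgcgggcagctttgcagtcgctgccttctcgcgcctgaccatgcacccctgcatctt
These matches are letters only, and binding was not measured.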

How the data were processed

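The authors deposited 1 table of whole-number counts, with a row for each gene symbol. The submitters' processing notes name cutadapt, STAR, SAMtools, Cufflinks and GRCh38 without roles; the sources used here give neither the counting tool nor the annotation. Per the file's values, 97.9% of 478 protein-coding genes with all exons inside spans of other genes, and no shared exon base, were at 0 in every library, against 14.0% of 12358 genes free of other spans; with opposite-strand neighbours only it was 98.3%, so strand appears unused. Counts of 1 to 10 were even in 87.9% to 90.7% of cases, as when both mates of a pair are counted, so a count stands for fewer fragments.

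Of 56505 rows, 27 named no gene (0.167% to 0.175% of counts) and were left out. All genes with 10 or more counts in at least 3 libraries (18116) were fitted with edgeR 4.0.16 (R 4.3.3; TMM, robust quasi-likelihood, two-sided, Benjamini-Hochberg, threshold 0.05), which was tested on simulated data. Every adjusted p comes from this fit unless another setting is named. Each SE is the absolute log2 fold change divided by the root of F. Floors of 3 counts equal 0.046 to 0.0624 CPM and, like all counts, cover counting error only. Positions come from GENCODE 29. Alternatives used DESeq2 1.42.0, limma-voom (limma 3.58.1), other normalizations, filters and thresholds, and fewer libraries.

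Groups and replicate numbers follow the sample titles. The labels do not say whether replicates came from separate cultures; p-values thus cover only differences among these libraries, possibly technical ones. Members and lists were chosen with earlier results of these data known. Named in full are all members past the threshold and ADAM9, ADAM10, ADAM15 and ADAM17; of each list, up to 4 called genes of at least 1 CPM with the largest changes, and others as further examples chosen after their values were seen. No protein table was used, and asparagine was added to the motif after a search with glycine alone.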

Additional observations from a re-analysis of the deposited data

How the results depend on the processing

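Of the 16 called members, 10 (ADAM8, ADAM12, ADAM15, ADAM19, ADAM22, ADAMTS9, ADAMTS12, ADAMTS15, ADAMTS16 and ADAMTSL1) were called under each of the 17 alternatives, and 6 were lost under at least 1; none of the 16 changed direction. Of the 12 not called, 1 (ADAMTS7) was called under some. Leaving out 1 library at a time gave 8 to 9 higher and 4 to 5 lower members, and the other alternatives gave 8 to 11 higher and 4 to 6 lower. Counts halved and rounded up, chosen after seeing the data, gave 11 higher and 6 lower of 23 tested. Regulators lower in shCK5-22 numbered 3 at an adjusted p below 0.01 and 3 to 8 leaving out 1 library at a time. Matrix substrates higher in shCK5-22 numbered 3 with at least 1 CPM in 3 libraries, where only 10 were tested. They numbered 4 to 5 leaving out 1 library. Of the shed membrane proteins, 11 to 13 were higher and 13 to 18 lower leaving out 1 library. With the replicate block, 10 members were higher and 6 lower, and over all genes 3462 were higher and 3282 lower, against 3132 and 3015 without it. Deviations of same-numbered libraries had correlations of 0.028, 0.051 and 0.018 across genes, and 5 of 6 libraries correlated best with their own number. The main fit took no pairs because the labels name no batch or culture shared by a number. Whether same-numbered libraries share one was not tested. The share of higher among all called genes lay between 46.8% and 54.1% over the alternatives. Depth limits the 5 tested members with at most 23 counts per library (ADAM23, ADAMTS2, ADAMTS3, ADAMTS13 and ADAMTSL3), whose SE lay between 0.458 and 0.58 on the log2 scale.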

Other observations

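Summed over all members of a subfamily, ADAM genes held 1039, 953.0 and 975.7 CPM in shCK5-22 and 1069, 1083 and 1083 CPM in shControl, a sum in which ADAM9 is the largest part. The ADAMTS sum was 203.9, 187.4 and 189.2 CPM in shCK5-22 and 145.0, 144.4 and 147.9 CPM in shControl, and the ADAMTSL sum was 28.1, 28.8 and 27.9 CPM in shCK5-22 and 24.3, 24.9 and 25.1 CPM in shControl. The ADAMTS and ADAMTSL sums did not overlap between groups, nor did the ADAM sums. These sums add counts of genes of different length and were not tested.

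Of 10 relatives outside the symbol pattern, 3 were tested and all 3 passed, where 33.9% of all genes tested did. A list of 3 genes is too short to compare shares. THSD4, an ADAMTSL-like gene whose protein binds fibrillin, was lower, at 73.2 ± 4.96 CPM in shCK5-22 and 99.7 ± 3.11 CPM in shControl (log2 fold change -0.44, adjusted p = 1.1e-07). PAPLN, which encodes papilin, was higher by 0.86 (adjusted p = 0.0455), on 12 to 45 counts. ADAMTS9-AS2, an antisense gene of ADAMTS9, had 67 to 73 counts in shCK5-22 and 29 to 41 in shControl (log2 fold change 1.00, adjusted p = 0.00238). Where its span overlaps that of ADAMTS9, reads appear to have been counted for neither gene.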
